A study of Mus musculus with 8 samples.

Results

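Interferon-stimulated antiviral genes are the genes through which a cell exposed to interferon resists viruses. Here 38 of them were followed in control macrophages and in macrophages where Il6ra, the gene of the IL-6 receptor alpha chain, was targeted. A gene was read from the probe set that the platform annotation gives to that gene alone, which measured 35 of the 38 among 19938 genes in all, each by a single probe set. Isg15 and Oas1g lay on probe sets shared with other genes (Gm9706 and Oas1a), and these and Ifi44 were not analysed here. The cells were grown from mouse bone marrow with recombinant murine M-CSF (10 ng/ml) for 10 days, kept without serum overnight and then treated for 4 h with recombinant murine IL-6 at 50 ng/ml. Control macrophages (Ctrl, 4 arrays) came from IL6ralpha flox/flox mice, in which Il6ra is flanked by loxP sites. The macrophages labelled IL6raKO (4 arrays) came from IL6ralpha flox/flox LysMCre tg/wt mice, in which Cre recombinase is driven by the lysozyme M locus in myeloid cells. All 8 cultures thus carried the floxed alleles and received M-CSF and IL-6, no array of unstimulated or interferon-treated cells was analysed here, and only the IL6raKO mice carried Cre. Strain, age and sex are not given in the labels. The replicates are named biological in the labels, with no word on separate animals, and the p-values below reflect only how far these 8 cultures spread.

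Type I interferon acts through the receptor chains IFNAR1 and IFNAR2 and the kinases JAK1 and TYK2 on a complex that holds STAT2 and IRF9 and binds the interferon-stimulated response element (ISRE) in the promoters of these genes. IL-6 acts through its receptor and the shared chain gp130, mainly on STAT3. Macrophages hold a basal level of many of these genes without infection and raise them strongly when interferon is present. The comparison asks whether their level in IL-6-exposed macrophages differed with the Il6ra genotype.

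Promoter windows, which the choice of the list did not use, held an ISRE core in some of the members. A window from 250 bases before to 50 bases after the start was found for 28 of the 38 members in RefSeq (GRCm38.p6), and windows of Usp18, Oas1b, Oas2, Mx1, Mx2, Rtp4, Dhx58, Zbp1, Parp9 and Parp14 were not in that table. The core of the ISRE was searched on either strand as GAAA, any 2 bases and GAAA again, and 15 of the 28 (53.6%) held it, against 3.99% of 27025 genes with a window. The core nearest the 3′ end of the window is shown for 1 gene of each role, the measured member of lowest p that held a core, with 6 bases on each side. Capitals mark the core, and each is read on the strand where it has that form.
Ifit3: aaagtaGAAACTGAAAcagact
Oas3: ggaggaGAAAACGAAAgtgaag
Rsad2: ttttctGAAAATGAAAgttgga
Ddx60: agaagaGAAACCGAAActatcc
Trim30a: aactgaGAAAAAGAAActaaag
These cores began at base -122 from the start in Ifit3, -75 in Oas3, -120 in Rsad2, -19 in Ddx60 and -36 in Trim30a, counted on the gene's strand with the start as base 0. With overlapping matches each counted, a window held 2 or more cores in 9 of the 28 members, and the window of Isg15 held 3. In Isg15, Bst2, Oas1a, Oas1c, Oas1g and Trim21 neighbouring cores overlapped and shared a GAAA, so they form a single repeat. Only in Ifit1, Ifit3 and Ddx60 did the cores lie apart. Sites with TTC and GAA 3 bases apart, the palindrome that STAT dimers bind, lay in 8 of the 28 members (28.6%) and in 9.55% of all genes with a window. The wider form, with 4 bases between, lay in 6 of the 28 (21.4%), against 8.01% of all genes. In Bst2 a STAT site and an ISRE core shared 3 bases. A match is a description of the letters and was not tested as a binding site.

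The whole windows of Rsad2 and Trim30a, the members of lowest p, and of Ifih1, the core-bearing member with the next highest array value after Trim30a, are printed 5′ to 3′ on the gene's strand with the ISRE core in capitals. Rsad2 lies at chr12:26456403-26456702 on the minus strand, the window of Trim30a shown here at chr7:104465144-104465443 on the minus strand, and Ifih1 at chr2:62646206-62646505 on the minus strand.
Rsad2: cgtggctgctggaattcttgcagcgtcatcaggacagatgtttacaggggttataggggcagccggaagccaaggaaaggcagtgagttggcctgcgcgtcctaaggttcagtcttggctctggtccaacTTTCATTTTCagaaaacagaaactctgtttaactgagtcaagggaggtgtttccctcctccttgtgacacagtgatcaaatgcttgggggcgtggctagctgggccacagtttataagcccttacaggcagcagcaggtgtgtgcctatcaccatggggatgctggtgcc
Trim30a: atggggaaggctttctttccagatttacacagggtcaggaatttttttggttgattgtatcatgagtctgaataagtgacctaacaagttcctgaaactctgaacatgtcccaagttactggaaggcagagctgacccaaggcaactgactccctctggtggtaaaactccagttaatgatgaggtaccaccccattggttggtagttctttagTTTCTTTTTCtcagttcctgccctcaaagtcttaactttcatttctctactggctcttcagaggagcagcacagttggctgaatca
Ifih1: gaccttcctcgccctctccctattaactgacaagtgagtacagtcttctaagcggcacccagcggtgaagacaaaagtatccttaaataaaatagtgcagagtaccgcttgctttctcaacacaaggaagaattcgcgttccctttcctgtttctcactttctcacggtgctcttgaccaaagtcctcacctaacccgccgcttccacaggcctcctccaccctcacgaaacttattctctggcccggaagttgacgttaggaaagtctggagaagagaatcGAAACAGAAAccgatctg
The core of Rsad2 begins at base -120 from the start, and that of Ifih1 at base 32. A second window of Trim30a, at chr7:104446076-104446375, held a core that began at base 2.

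None of the antiviral genes passed the test between genotypes. In limma with Benjamini-Hochberg adjustment over 19938 genes, 0 of the 35 measured members had an adjusted p under 0.05, where 6 of all genes (0.0301%) did, and the lowest adjusted p among the members was 0.669. At an unadjusted p under 0.05, 2 of the 35 members differed, Rsad2 higher and Trim30a lower in IL6raKO, a share of 5.71% against 7.28% of all genes (2.74% higher and 4.54% lower). Of the 35 members, 15 were lower in IL6raKO and 20 higher, with a median difference of 0.01 on the log2 scale, while 54.2% of all genes were lower and their median was -0.01. That split moved with the scaling of the arrays: when each array was centred on its 75th percentile, 20 of the 35 were lower and the median was -0.02, beside -0.04 for all genes. The differences ranged from -0.13 for Trim30a to 0.26 for Rsad2. For 26 of the 35 the difference was below 0.1 in either direction, beside 69.4% of all genes. For 31 of the 35 it was smaller than the gene's own residual SD between replicates, a share not counted over all genes.

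The size of change that these 8 arrays leave room for can be read from the confidence intervals. The 95% interval held 0 for 33 of the 35 members, and none of the 35 reached down to a fall of 0.5 on the log2 scale. The lowest bound was -0.42, for Ifit1, and the highest 0.50, for Rsad2. In the same fit Il6ra, the targeted gene, was at 8.43, 8.40, 8.40 and 8.45 in Ctrl replicates 1 to 4 and at 7.75, 8.10, 7.91 and 7.92 in IL6raKO. Every IL6raKO value of Il6ra lay below every Ctrl value, with a difference of -0.50 (SE 0.07, limma adjusted p = 0.0607), or 70.6% of the control level. How much receptor the IL6raKO cells kept was not tested. The transcription factor gene Stat3 differed by -0.57 (SE 0.07, limma adjusted p = 0.0348). That call was lost with the replicate block (limma adjusted p = 0.161) and in each of the 8 fits with 1 array left out (limma adjusted p between 0.0771 and 0.166, difference -0.62 to -0.54).

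**Figure D1:**
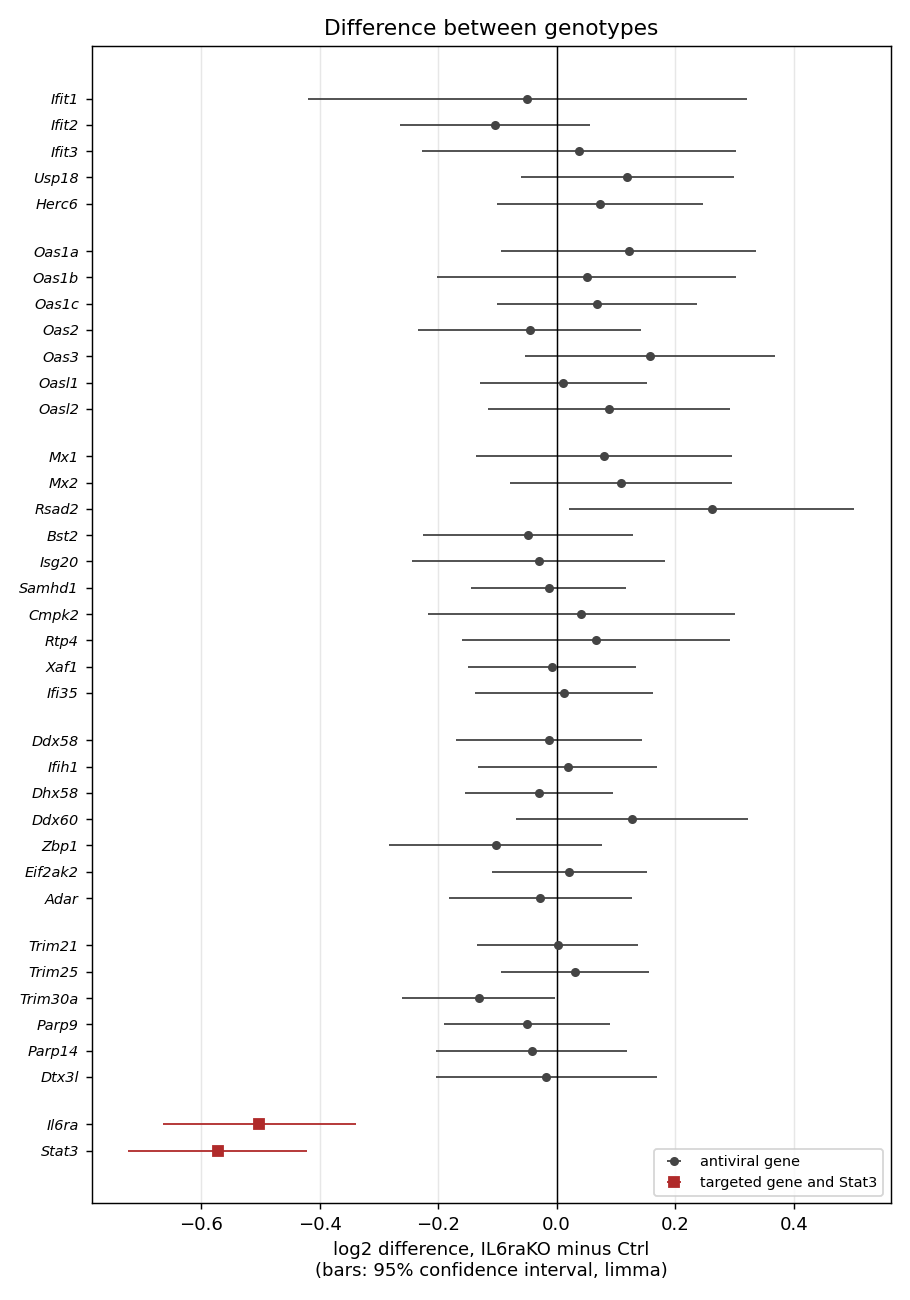
Log2 difference IL6raKO minus Ctrl (x axis) for 35 antiviral genes in 5 role groups and, as squares, for Il6ra and Stat3 (bars: 95% confidence intervals in limma, 4 arrays per group). The intervals of all antiviral genes but Rsad2 and Trim30a cross 0, and none extends below -0.42, while Il6ra and Stat3 lie at -0.50 and -0.57.

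**Figure D2:**
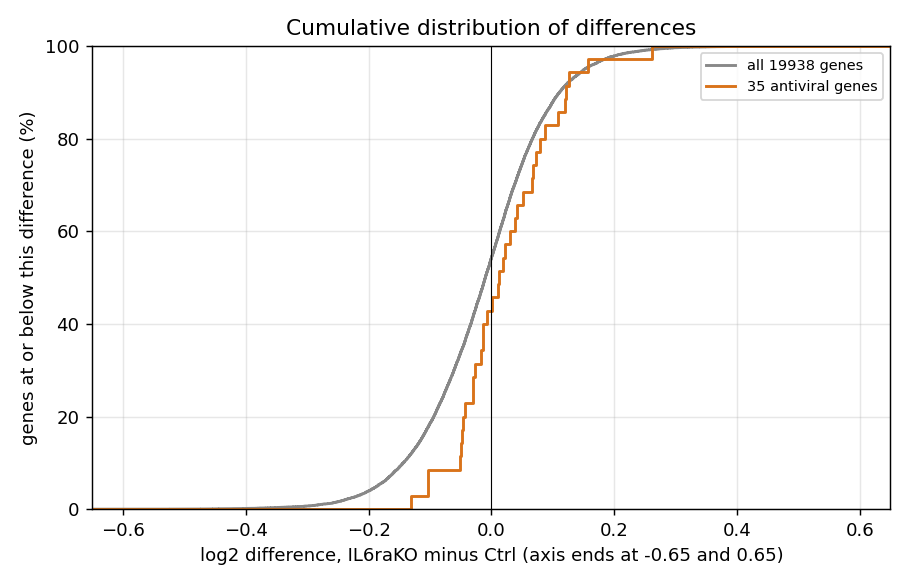
Share of genes (y axis, percent) at or below each log2 difference IL6raKO minus Ctrl (x axis) for the 35 antiviral genes and all 19938 genes. The antiviral genes run from -0.13 to 0.26, with a median of 0.01 beside -0.01 for all genes.

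The IFIT genes and the ISG15 system, 5 of 6 measured, gave 2 lower and 3 higher members, none past the test. Usp18, which removes ISG15 from proteins and restrains interferon receptor signalling, was at 6.51, 6.39, 6.35 and 6.62 in Ctrl replicates 1 to 4 and at 6.68, 6.68, 6.56 and 6.43 in IL6raKO. The groups overlapped, with IL6raKO replicates 1 and 2 above all Ctrl values, and the difference was 0.12 (SE 0.08, limma adjusted p = 0.773), or 0.08 without Ctrl replicate 3. Ifit2, an RNA-binding protein that restrains translation of viral RNA, was at 6.81, 6.98, 6.73 and 6.85 in Ctrl and at 6.61, 6.75, 6.83 and 6.76 in IL6raKO. Its difference of -0.10 (SE 0.07, limma adjusted p = 0.78) was about the size of its residual SD of 0.10, and it was -0.06 without Ctrl replicate 2 or without IL6raKO replicate 1.

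Ifit1 and Ifit3, close relatives of Ifit2, varied more between replicates than between genotypes. Ifit1 was at 6.61, 6.79, 6.05 and 6.43 in Ctrl and at 6.12, 6.33, 6.85 and 6.38 in IL6raKO. Its residual SD of 0.31 lay at percentile 99.1 of all genes, and its difference was -0.05 (SE 0.17, limma adjusted p = 0.968). Ifit3 was at 6.24, 6.62, 6.08 and 6.60 in Ctrl and at 6.54, 6.50, 6.24 and 6.41 in IL6raKO, a difference of 0.04 (SE 0.12, limma adjusted p = 0.965). Ctrl replicate 3 held the lowest value of the 8 arrays for each of these genes, while the highest was IL6raKO replicate 3 for Ifit1 and Ctrl replicate 2 for Ifit3. The direction of neither was stable: without Ctrl replicate 2 Ifit1 differed by 0.06, without IL6raKO replicate 1 by 0.05, and without Ctrl replicate 3 Ifit3 differed by -0.06, its sign also turning without Ctrl replicate 1 or IL6raKO replicate 1. Herc6, the main ligase that attaches ISG15 in the mouse, averaged 8.78 in Ctrl (SD 0.16) and 8.85 in IL6raKO (SD 0.03; n = 4 each).

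Among the oligoadenylate synthetases, enzymes that respond to double-stranded RNA by making the activator of RNase L, 7 of 8 were measured and 6 of the 7 lay higher in IL6raKO, none past the test. Oas3, which acts on long double-stranded RNA, was at 6.75, 6.88, 6.67 and 7.13 in Ctrl replicates 1 to 4 and at 6.88, 7.10, 7.04 and 7.03 in IL6raKO. Ctrl replicate 4 was the highest of all 8 arrays and the other Ctrl arrays lay below the IL6raKO arrays, although Ctrl replicate 2 and IL6raKO replicate 1 round to the same value. The difference was 0.16 (SE 0.10, limma adjusted p = 0.745), and without Ctrl replicate 4 it was 0.25. In that fit the limma adjusted p was 0.71 and the unadjusted limma p 0.00933. Leaving out Ctrl replicate 3 instead gave 0.10, at a limma adjusted p of 0.852. Oas1a was at 7.80, 7.80, 7.60 and 7.61 in Ctrl and at 7.72, 8.08, 7.86 and 7.63 in IL6raKO, a difference of 0.12 (SE 0.10, limma adjusted p = 0.804). IL6raKO replicates 2 and 3 lay above all Ctrl values of Oas1a, and without IL6raKO replicate 2 its difference was 0.04. Another probe set was annotated to Oas1a and Oas1g together, so signal may be split between Oas1a and Oas1g. Oas1b and Oas1c had no shared probe set.

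The other synthetase genes differed by -0.05 (Oas2) to 0.09 (Oasl2). Oas2 averaged 8.30 in Ctrl (SD 0.17) and 8.26 in IL6raKO (SD 0.08), and Oasl2, a synthetase with ubiquitin-like domains, 8.69 (SD 0.15) and 8.77 (SD 0.15; n = 4 each). Oasl1, an inactive relative known to restrain translation of Irf7, differed by 0.01, Oas1c by 0.07 and Oas1b, the flavivirus resistance gene, by 0.05.

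The direct antiviral effectors, 10 of 11 measured, held the member that differed most. Rsad2 encodes viperin, an enzyme that makes a chain-terminating nucleotide. Its log2 expression was 6.99, 7.52, 7.16 and 7.31 in Ctrl replicates 1 to 4 and 7.45, 7.49, 7.70 and 7.40 in IL6raKO. Ctrl replicate 2 lay inside the IL6raKO range and the other Ctrl arrays lay below it. The difference of 0.26 (SE 0.11, 95% interval 0.02 to 0.50), or 119.9% of the control level, had an unadjusted limma p of 0.0354 and an adjusted p of 0.669. With any single array left out it ranged from 0.18 without Ctrl replicate 1 to 0.35 without Ctrl replicate 2, with unadjusted p between 0.00446 and 0.115. Cmpk2, a mitochondrial nucleotide kinase encoded beside Rsad2 on chromosome 12, was at 5.40, 5.87, 5.34 and 5.72 in Ctrl and at 5.82, 5.49, 5.61 and 5.59 in IL6raKO. Its groups overlapped throughout (difference 0.04, SE 0.12, limma adjusted p = 0.958), and the sign turned without Ctrl replicate 1 or 3 or IL6raKO replicate 1.

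The dynamin-like GTPases Mx1 and Mx2, which block virus replication, had the lowest array values of the members. Mx1 was at 4.95, 5.33, 5.09 and 4.91 in Ctrl and at 5.23, 5.04, 5.28 and 5.05 in IL6raKO. Mx2 was at 4.40, 4.18, 3.99 and 4.32 in Ctrl and at 4.36, 4.35, 4.25 and 4.36 in IL6raKO. The groups overlapped for each, with differences of 0.08 (SE 0.10) and 0.11 (SE 0.09) and limma adjusted p of 0.886 and 0.797. That of Mx1 was 0.17 without Ctrl replicate 2 and 0.03 without Ctrl replicate 4, and that of Mx2 was 0.03 without Ctrl replicate 3. These values lie at percentiles 19.8 and 8.4 of all genes, where background takes a large part of an array signal, and whether either transcript was present was not tested.

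At the other end, Samhd1, which breaks down the nucleotides that viral polymerases need, was at 12.05, 12.00, 11.97 and 11.87 in Ctrl and at 11.94, 11.96, 11.98 and 11.95 in IL6raKO. Its replicates lay close together and its 95% interval was narrow, -0.14 to 0.12 around a difference of -0.01 (limma adjusted p = 0.976). Bst2, the tetherin that holds budding virus at the membrane, differed by -0.05 and the exonuclease gene Isg20 by -0.03. Rtp4 differed by 0.07, Xaf1 by -0.01 and Ifi35 by 0.01. Of the 10 effectors, 4 were lower and 6 higher.

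All 7 RNA sensors and regulators were measured, 4 lower and 3 higher, with 0 past the test at either threshold. Ddx60, a helicase of the RIG-I pathway, was at 8.11, 8.13, 7.82 and 7.86 in Ctrl and at 8.22, 8.09, 8.16 and 7.96 in IL6raKO. Ctrl replicates 3 and 4 were the lowest of the 8 arrays, and the difference was 0.13 (SE 0.09, limma adjusted p = 0.778), or 0.07 without Ctrl replicate 3. Zbp1, the sensor of Z-form nucleic acid, was at 7.04, 6.94, 7.08 and 6.88 in Ctrl and at 6.90, 6.98, 6.98 and 6.67 in IL6raKO. IL6raKO replicate 4 was the lowest array; the difference was -0.10 (SE 0.08, limma adjusted p = 0.8) and -0.03 without that array. The cytosolic RNA receptors differed by less: Ddx58, which encodes RIG-I, averaged 8.41 in Ctrl (SD 0.07) and 8.39 in IL6raKO (SD 0.11; n = 4 each). Ifih1, which encodes MDA5, averaged 9.21 (SD 0.12) and 9.22 (SD 0.03; n = 4 each). Dhx58, which encodes LGP2, differed by -0.03, the kinase gene Eif2ak2 (PKR) by 0.02 and the RNA-editing enzyme gene Adar by -0.03. For these 5 genes the 95% intervals all lay between -0.18 and 0.17.

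Among the ubiquitin ligases and ADP-ribosyltransferases, all 6 measured, Trim30a was the member with separate groups. Trim30a, a TRIM protein of the mouse induced by interferon and by Toll-like receptor signals, was at 10.83, 10.82, 10.73 and 10.69 in Ctrl and at 10.65, 10.63, 10.62 and 10.65 in IL6raKO. All 4 IL6raKO values lay below all 4 Ctrl values, with a difference of -0.13 (SE 0.06, 95% interval -0.26 to -0.0025), or 91.3% of the control level. The unadjusted limma p was 0.0463 and the adjusted p 0.68. It was the only 1 of 35 members without overlap in that direction, where 2.37% of all genes had none, and 0 of 35 lay wholly above, where 2.07% of genes did. The SD was 0.01 among the IL6raKO arrays and 0.07 among the Ctrl arrays. Trim30a lies among close paralogs, and signal from them cannot be separated here.

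Parp9, which with Dtx3l forms an ADP-ribosylating ubiquitin ligase, was at 8.16, 8.32, 8.20 and 8.15 in Ctrl and at 8.14, 8.24, 8.11 and 8.15 in IL6raKO, with overlapping groups and a difference of -0.05 (SE 0.06, limma adjusted p = 0.889), or -0.01 without Ctrl replicate 2. Its partner Dtx3l differed by -0.02 and Parp14 by -0.04. Trim21, the cytosolic antibody receptor, differed by 0.00 (95% interval -0.13 to 0.14). Trim25, the ligase known for its part in RIG-I signalling, averaged 10.18 in Ctrl (SD 0.01) and 10.21 in IL6raKO (SD 0.06; n = 4 each).

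**Figure D3:**
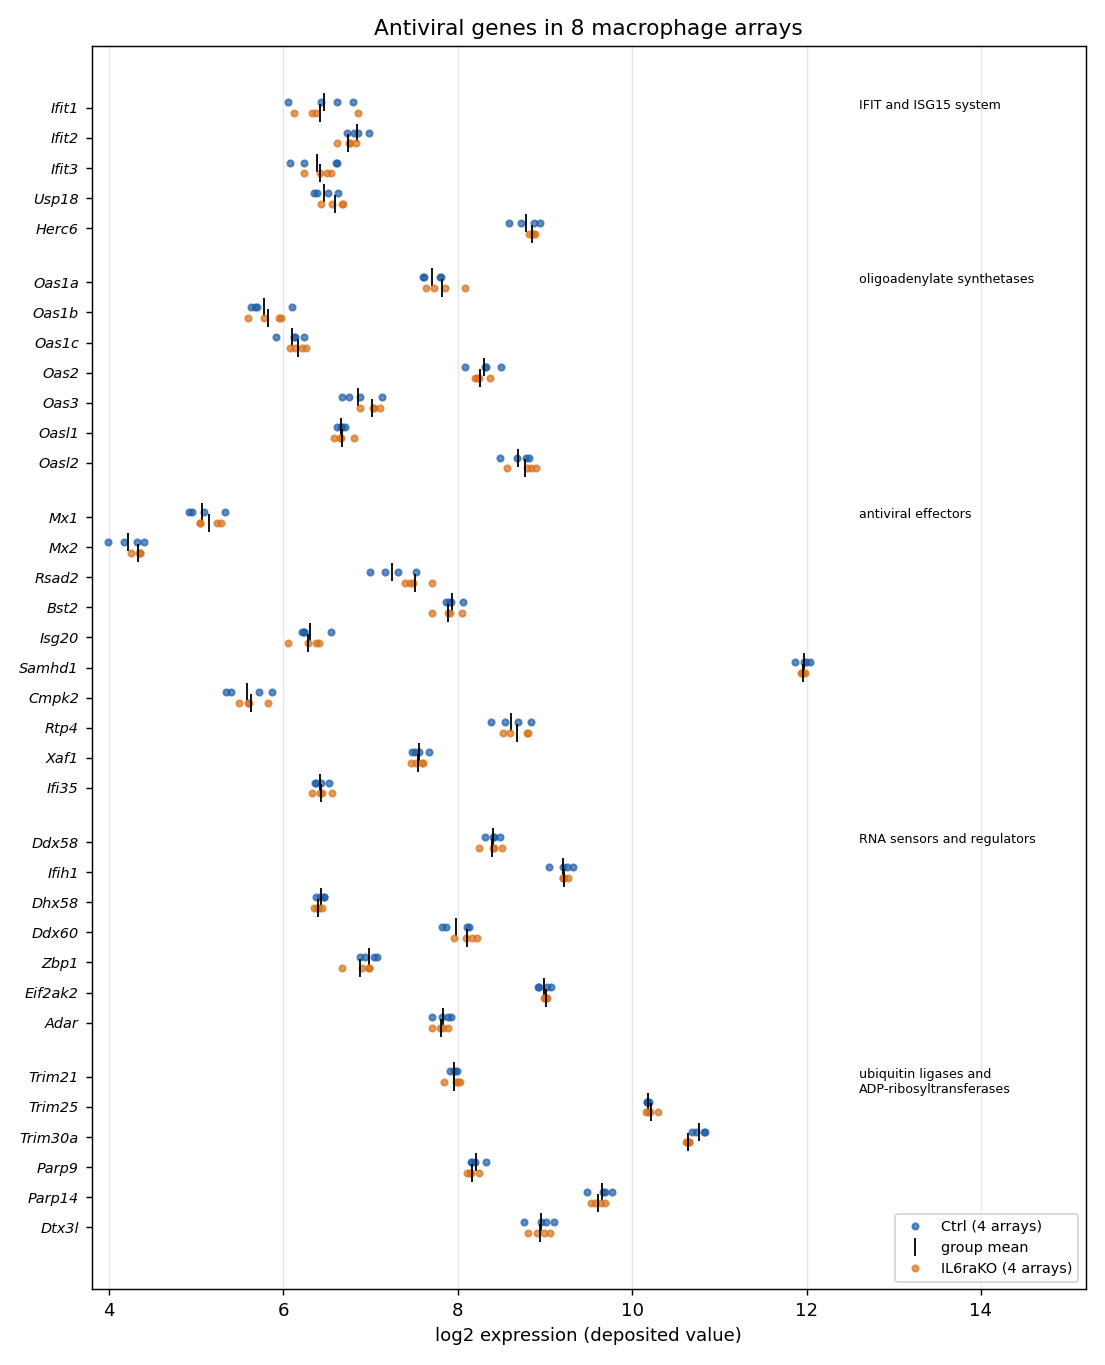
Deposited log2 expression (x axis) of 35 antiviral genes in each of 4 Ctrl and 4 IL6raKO arrays, grouped by role, with a tick at each group mean. The Ctrl and IL6raKO points overlap for every gene except Trim30a, and values of different genes come from different probe sets and do not rank their abundance.

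Single arrays of either group held many of the members' highest or lowest values. Ctrl replicate 3 held the lowest of the 8 values for 13 of the 35 members, and only 9 of its 35 values lay above the gene's mean over all arrays. Ctrl replicate 2 held the lowest value for 0 members and the highest for 8, with 24 of 35 above the mean. For comparison, 10817 and 9603 of all 19938 genes lay above their means in these arrays. In Ctrl replicate 3, 0 of the 5 IFIT and ISG15 system genes and 0 of the 7 synthetase genes lay above the mean, with median deviations of -0.18 and -0.16. In Ctrl replicate 2 the same medians were 0.19 and 0.03. Among the IL6raKO arrays, replicate 4 was lowest for 7 members and had 11 of 35 above the mean, and replicates 1, 2 and 3 had 20, 20 and 22. The median deviation of the ligases and ADP-ribosyltransferases in Ctrl replicate 3 was 0.01, and among them Parp14, at 9.48, was at its lowest of the 8 arrays there.

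**Figure D4:**
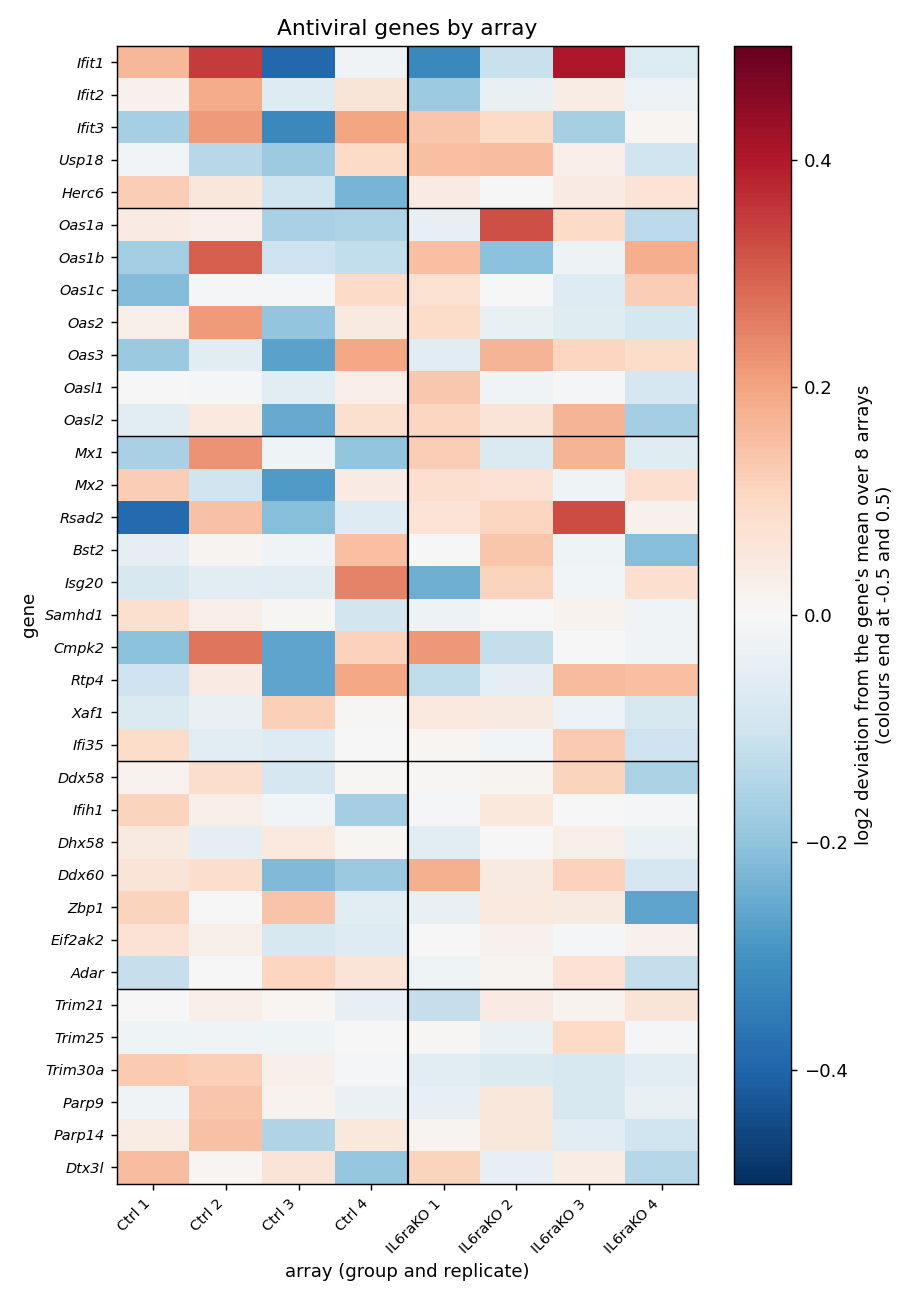
Deviation of each of 35 antiviral genes (rows, grouped by role) in each array (columns) from the gene's mean over all 8 arrays, on the log2 scale. The IFIT and synthetase rows are all at or below 0 in Ctrl replicate 3, at medians of -0.18 and -0.16, while no such block separates Ctrl from IL6raKO.

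The median deviation of all 35 members was 0.00, 0.03, -0.06 and 0.01 in Ctrl replicates 1 to 4 and 0.01, 0.02, 0.03 and -0.04 in IL6raKO, so that the groups overlapped. The SD was larger in Ctrl than in IL6raKO for 26 of the 35 members (74.3%), against 58.9% of all genes. Without Ctrl replicate 3 it was larger for 21 of 35 (60%, against 56.5% of genes), without Ctrl replicate 2 also for 21 of 35 (60%, against 55.5%), and without Ctrl replicate 4 for 24 of 35 (68.6%, against 50.3%). No test of this difference in spread was made. The median residual SD of the members was 0.12, beside 0.11 for all genes.

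Of the wider interferon pathway, 44 of 48 listed genes were measured and 0 passed over all genes in limma, while 6 (13.6%) had an unadjusted p under 0.05, against 7.28% of all genes, all 6 lower in IL6raKO, where 4.54% of all genes were lower at that level. The list's median difference was -0.01, with 22 genes lower and 22 higher. Sting1, the adaptor for cytosolic DNA sensing, was at 9.04, 9.05, 8.97 and 9.08 in Ctrl and at 8.76, 8.74, 8.82 and 8.84 in IL6raKO. All IL6raKO values of Sting1 lay below all Ctrl values, with a difference of -0.25 (SE 0.06, limma adjusted p = 0.448). Trex1, the exonuclease that clears cytosolic DNA, was at 6.98, 7.09, 6.88 and 7.03 in Ctrl and at 6.81, 6.75, 6.82 and 6.73 in IL6raKO. Its groups did not overlap either, with a difference of -0.22 (SE 0.06, limma adjusted p = 0.566). Irf5, an activating factor of the pathway, lay wholly above Ctrl in IL6raKO with a difference of 0.11 (limma adjusted p = 0.715). Of the 44 pathway genes, 2 thus lay wholly below and 1 wholly above Ctrl, where 2.37% and 2.07% of all genes did.

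Socs3, a feedback inhibitor of cytokine receptors, differed by -0.27 (SE 0.08, limma adjusted p = 0.569) and Irf1, a transcription factor that also binds the ISRE, by -0.22 (SE 0.07, limma adjusted p = 0.616). With the mean of the gene's probe sets in place of the one with the highest values, these were -0.18 and -0.11. Of the factors that drive the antiviral genes most directly, Stat2 differed by 0.01 (95% interval -0.15 to 0.18) and Irf9 by -0.04 (95% interval -0.20 to 0.12). The receptor chains Ifnar1 and Ifnar2 differed by -0.05 and 0.06 and the kinase genes Jak1 and Tyk2 by -0.01 and -0.06. Of the 9 ligand genes measured, 6 were lower. Ifna4 differed by -0.24 and Ifnab by -0.26, each with overlapping groups and an unadjusted limma p under 0.05. Ifnb1, the interferon that macrophages make first, differed by -0.11. Ifna4 and Ifnb1 had low array values, 3.79 and 4.13 in Ctrl, at percentiles 3.6 and 6.5 of all genes.

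Array medians over all probe sets ran from 6.31 to 6.35 (log2). Over the 19938 genes analysed the median was 6.50 in Ctrl replicate 4 and 6.41 to 6.45 in the other arrays. In Ctrl replicate 4, 59.4% of all genes lay above their mean over the 8 arrays. Macrophage markers (8 of 9 measured) were bright in every array, at percentiles 87.6 to 100 of all genes. Their mean level was 11.65 to 11.79 in Ctrl and 11.68 to 11.73 in IL6raKO. The plasmacytoid dendritic cell list, a cell type rich in interferon-stimulated genes, had a mean level of 6.56 to 6.71 in Ctrl and 6.54 to 6.64 in IL6raKO over 7 of 8 markers. In Ctrl replicate 3 that list was at 6.66, and the part of other cells in the array's low antiviral genes was not tested. The B cell list (5 of 6 markers, at percentiles 9.7 to 42) was at 5.23 to 5.42 in Ctrl and 5.14 to 5.19 in IL6raKO. It was the only marker list whose groups did not overlap, and 0 of its markers passed in limma. Ctrl replicate 4 was far from the rest in a principal component analysis of all genes (21.5 on the first component, against -6.6 to 4.8 elsewhere), and its mast cell and basophil list was at 6.97, the highest of the 8. It was also the highest for the plasmacytoid dendritic cell (6.71), neutrophil (6.16), B cell (5.42) and T and NK cell (5.48) lists. It was the lowest for the macrophage (11.65) and dendritic cell (5.71) lists, and its monocyte list (6.78) lay below that of Ctrl replicate 1 (6.82). The part of other cells in the values of Ctrl replicate 4 was not tested. Without it 0 of the 35 members passed in limma, as did 0 of all 19938 genes. In that fit 3 members had an unadjusted limma p under 0.05, and the share of all genes at that level was not counted. The median difference of the members was 0.01, beside -0.002 for all genes. In bulk RNA, fewer cells of a type and less RNA per cell cannot be told apart, nor can loss of the receptor and other effects of Cre.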

How the data were processed

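Biotin-labelled cDNA of 8 macrophage cultures was measured on Affymetrix arrays, per the labels' protocols. The authors deposited log2 expression values, 1 per probe set and array. The submitters' processing notes name RMA and R 2.13.1; other steps and the build are not stated in the sources read. The values range from 1.96 to 14.2, as log2 values of RMA do. Of 35556 probe sets, 21789 had 1 gene symbol in the platform annotation, 1621 several and 12146 none. For a gene with several, the probe set with the highest mean was used. RMA compresses differences of dim genes. Arrays carry no depth, and their number limits the precision.

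Groups were compared with limma 3.58.1 in R 4.3.3 (lmFit and eBayes, default settings, no covariate, no filter), adjusted over 19938 genes and tested on simulated data. Members and lists were chosen with earlier results of these data known, and no p is given for a list. Values in every array are printed for the 2 members of lowest p in each role, the 2 with the highest and the 2 with the lowest mean, and the 3 with the largest residual SD; of the pathway list, the 4 of lowest p and Stat2 and Irf9 are named, others after their values were seen. Replicate numbers are shared between groups, but over all genes same-numbered arrays did not deviate together (correlations -0.01, -0.01, 0.04 and -0.01). The mast cell and basophil list was lowest in replicate 1 and highest in replicate 4 of both groups. It was at 6.22 and 6.97 in Ctrl and at 5.97 and 6.65 in IL6raKO. No other marker list had both extremes at the same numbers in both groups. A pairing of the cultures was therefore not excluded. The alternatives changed the variance model (trended and robust), added the replicate block or array weights, kept only genes above the median or the 25th percentile, normalized again by quantiles or by centring on the 75th percentile, averaged probe sets, used an adjusted p under 0.1, or left out each array.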

Additional observations from a re-analysis of the deposited data

Results flagged for a closer look

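Each gene and list median was checked within each genotype for an outlying array, by its gap as a share of the group's range. A single array was flagged in 3 of these 92 sets, where chance gives about 4.6. For Oas1b it was Ctrl replicate 2, at 6.10 beside 5.62 to 5.70 for the remaining controls. For Isg20 it was Ctrl replicate 4, at 6.54 beside 6.21 to 6.24. For Mx2, at a level near the floor of the array, it was IL6raKO replicate 3, at 4.25 beside 4.35 to 4.36. That gap was small beside the residual SD of Mx2 (0.13), and the other IL6raKO values were nearly equal.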

How the results depend on the processing

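No member passed over all genes in limma under any of the 17 alternatives, and the lowest adjusted p of a member in any was 0.517 (Trim30a, centring on the 75th percentile). The count of members with an unadjusted p under 0.05, 2 in the fit of all arrays, was 1 with the replicate block, 1 with centring on the 75th percentile and 0 to 3 with an array left out. Neither the share of all genes at that level nor the share without overlap was counted in the alternatives. Members without overlap numbered 1 to 2 with an array left out, where fewer arrays make separation easier. The count of all genes called, 6, was 22 with the trended and robust model, 0 with the replicate block, 11 with either filter, 12 at an adjusted p under 0.1 and 0 to 1 with an array left out. Whether same-numbered arrays form pairs is not given in the labels. Il6ra, not called in the fit of all genes, was called with the trended and robust model (-0.50, adjusted p = 0.00762), among genes above the median (-0.50, adjusted p = 0.0142) and above the 25th percentile (-0.50, adjusted p = 0.0328), after quantile normalization (-0.53, adjusted p = 0.0476) and with centring (-0.53, adjusted p = 0.0438). It was not called with the replicate block (adjusted p = 0.27), array weights (0.0789), the mean of probe sets (0.059) or an array left out (0.0528 to 0.222). The pathway list's median was -0.033 with centring. With an array left out, 18 of the 35 members turned sign in at least 1 of the 8 fits, and 12 to 18 were lower in IL6raKO; those that turned included Samhd1 (-0.046 to 0.012), Ifit1 (-0.19 to 0.058), Ifit3 (-0.063 to 0.12) and Cmpk2 (-0.039 to 0.14). The causes of these changes were not tested. Dim genes such as Mx2 limit what an array can show.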
